A study of Arabidopsis thaliana with 14 samples.

Results

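Inflorescences of Arabidopsis thaliana that had stopped growing and were collected 48 h after fruit removal were compared with inflorescences that were labelled as growing. The comparison rests on 4 of the 14 arrays in the series, 2 on each side. The 48 h arrays came from fertile plants whose genotype is labelled ms1-1 co-segregant. They had arrested before most of their fruits were taken off, and per the labels' protocols the 3 to 4 fruits closest to the inflorescence were left on, whereas the series text speaks of all fruits. The protocols name Landsberg erecta for these plants. Of the growing arrays, 1 came from fertile plants of that genotype that still bore their fruits and 1 from plants homozygous for ms1-1, a mutation that makes plants male sterile and so keeps them from setting seed. All 4 were pools of whole inflorescences from 3 to 10 plants, with flowers up to about floral stage 10. The labels do not give the hour of collection, nor whether arrays of a group came from separate plants. The titles carry a code that the sources used here do not explain. It begins with r on both growing arrays and with g on both 48 h arrays, so the code and the sides of the comparison cannot be told apart.

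In Arabidopsis the whole set of inflorescence meristems stops producing flowers near the end of the life cycle, a halt known as global proliferative arrest. Developing seeds bring it on, and removal of fruits, or sterility, lets growth go on or start again. The comparison asks which transcripts were back at the level of inflorescences that had never stopped, which had not returned, and which had passed that level. In these bulk samples, fewer cells of a type and less RNA per cell cannot be told apart.

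The other arrays serve as reference levels. Of the inflorescences, 2 were arrested (1 with an r code, here arrested 1, and 1 with a g code, arrested 2), and 2 each were taken 6 h and 24 h after fruit removal. The medians of the 10 inflorescence arrays lay between 7.27 and 7.45, on a scale read as log2. Over all 21195 loci the 48 h arrays correlated with each other at 0.975, with the growing arrays at 0.937 to 0.957, and the growing arrays with each other at 0.934. The fertile and sterile growing arrays thus differed from each other at least as much as from the 48 h arrays, and over all loci the sterile array was 0.25 higher at the median. The gene MS1 has no value here, so the label of the sterile array could not be checked by it. The number of arrays limits the precision of every value.

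Few loci were called between regrown and growing inflorescences, a count limited by the number of arrays. Of 21195 loci, 227 (1.07%) were called by limma at an adjusted p under 0.05, with 124 higher at 48 h (0.585%) and 103 lower (0.486%). An unadjusted p under 0.05 was found for 3756 loci (17.7%), the share to set beside counts of list members at that level below. In the same fit 5596 loci (26.4%) were called between 48 h and arrested and 5483 (25.9%) between growing and arrested inflorescences, comparisons that share arrays with the first. Among the called loci, 41 stood at least 4-fold higher and 21 at least 4-fold lower at 48 h. At 222 of the 227 both 48 h arrays lay outside the range of both growing arrays, which a call on this same difference favours. Over all loci both 48 h arrays lay above both growing arrays at 15.0% and below both at 23.5%. Among the called loci were genes of the circadian clock, of flavonoid synthesis, of sulfur and sugar metabolism, of cold and drought response, and a few of the hormone pathways.

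The number of calls depended on which arrays supplied the spread. It was 47 without the 6 h arrays, whose 2 values lay closest together, and 1237 without the arrested arrays. When either 48 h array was left out it was 23 or 24. A fit of the 4 compared arrays alone called 0 loci in limma, with 3438 at an unadjusted p under 0.05. With the title code as a block, which could be estimated through the arrested pair alone, 382 loci were called. Of the 227, 58 were among these, and all 227 kept their direction. Where a called gene was not called with that block, this is said with its values.

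The largest rise among called loci was that of FSD1, the iron superoxide dismutase of the chloroplast that removes superoxide. It read 10.17 and 9.74 at 48 h, against 4.11 in the sterile growing array, 7.10 in the fertile one, and 10.91 and 12.18 in arrest. Both 48 h arrays lay above growing and below arrest. The log2 difference was 4.35 ± 0.42 (limma adjusted p = 0.0135), and it was 5.84 against the sterile and 2.86 against the fertile array alone. SDI1 (ATSDI1), named for its induction by sulfur deficiency, read 9.81 and 9.24 at 48 h against 5.78 and 5.17 in the sterile and fertile growing arrays. Arrested inflorescences, at 8.05 and 7.61, lay between these groups, so the 48 h level was past that of arrest, and the difference from growing was 4.05 ± 0.27 (limma adjusted p = 0.00516). At 6 h SDI1 read higher still, 10.50 and 10.33. AT4G17470 read 9.15 and 8.23 at 48 h, 4.82 and 4.23 in growing and 4.62 and 4.93 in arrested arrays. It was thus high in neither growth nor arrest, and the difference was 4.17 ± 0.38 (limma adjusted p = 0.0132), though it was not called with the block (adjusted p = 0.0512). AT4G17470 was high at 6 h already, at 8.51 and 8.13. AT1G65490 read 9.50 and 9.71 at 48 h 5.94 and 6.48 in growing and 10.61 and 10.79 in arrested arrays, a rise of 3.40 ± 0.20 (limma adjusted p = 0.00497).

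At the other end, DRM2 (AT2G33830), a dormancy-associated gene, fell by 4.21 ± 0.62 on the log2 scale (limma adjusted p = 0.0324). It read 6.43 and 5.28 at 48 h, 7.28 in the sterile growing array, 12.85 in the fertile one, and 10.94 and 12.93 in arrest. These 48 h values were the lowest of the 6, but the size of the fall came mostly from the fertile array: it was 6.99 against that array alone and 1.42 against the sterile one. MEE14 read 7.94 and 6.54 at 48 h against 10.30 and 12.47 in the sterile and fertile growing arrays and 11.31 and 12.87 in arrest, a difference of -4.15 ± 0.59. COR27, a cold-regulated gene whose protein acts on clock genes, read 5.37 and 5.69 at 48 h, 8.85 and 10.12 in growing arrays, and 6.93 and 5.80 in arrest. Its difference was -3.96 ± 0.44 (limma adjusted p = 0.0151), with no overlap between the 48 h and growing arrays, and it was not called with the block (adjusted p = 0.0725).

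**Figure D1:**
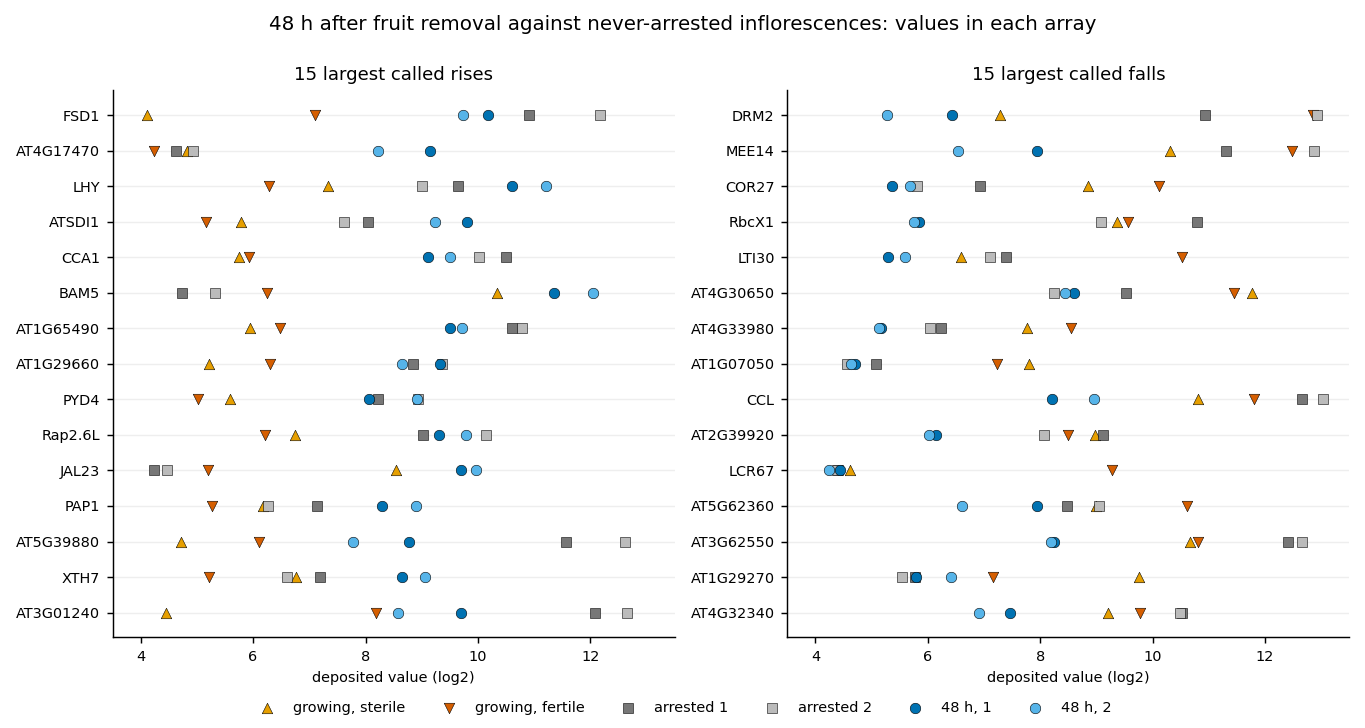
Deposited log2 value (horizontal axis) of the 15 called genes with the largest rise (left) and the 15 with the largest fall (right) at 48 h, with 1 marker per array: growing sterile, growing fertile, the 2 arrested arrays (1 with an r code, 2 with a g code) and the 2 arrays at 48 h. In each row the 48 h markers lie on 1 side of both growing markers, and the arrested markers lie on either side of them.

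Called loci were sorted by where the arrested inflorescences stood. At 139 of the 227 the 48 h arrays differed from growing in the direction of arrest, with arrested and growing at least 1 apart on the log2 scale. These were 89 of the 124 higher and 50 of the 103 lower loci. At 16 loci (7 higher, 9 lower) the 48 h mean had moved past the growing mean, away from arrest. LTP12 is among them by its means alone, since its 48 h arrays lay between the growing arrays. At 72 loci (28 higher, 44 lower) arrested and growing differed by under 1. The shares of the called loci were 61.2% towards arrest, 7.05% past growing and 31.7% with little difference, and over all loci they were 13.5%, 5.17% and 81.4%. Both differences share the growing arrays, so the shares are given without a test. Of the 89 higher loci on the side of arrest, 64 were nearer to the arrested than to the growing mean, as were 46 of the 50 lower ones. A call against growing favours such a position. At 8 of the 89 and 14 of the 50 the 48 h arrays lay beyond the arrested as well as the growing arrays. These loci were thus past arrest, not between the states.

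**Figure D2:**
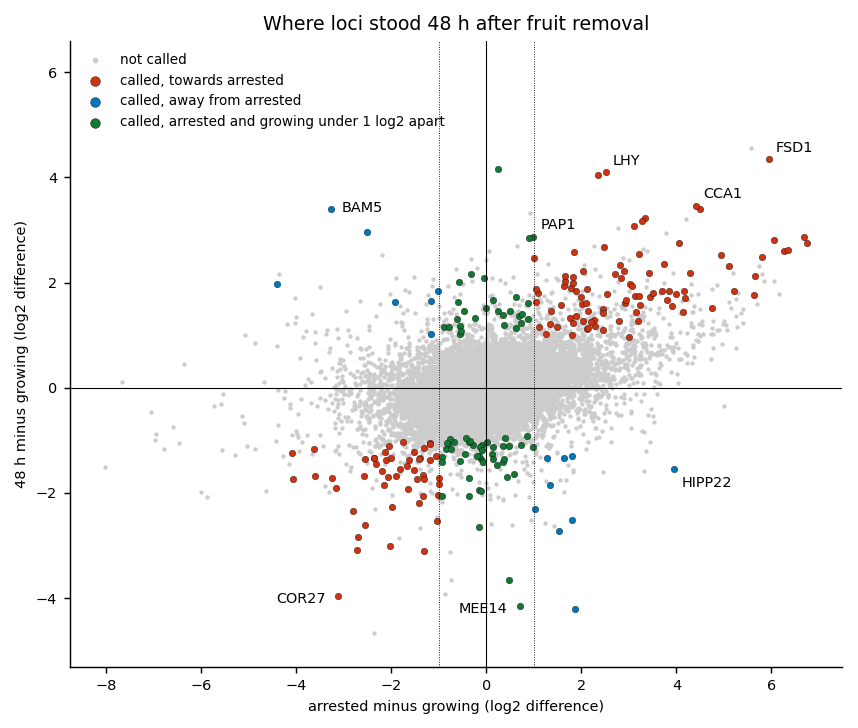
Log2 difference of arrested minus growing (horizontal) and of 48 h minus growing (vertical) for each of 21195 loci. Red points are called loci on the side of arrest, blue points called loci past growing and green points called loci whose arrested and growing means differ by under 1 (dotted lines), and both axes share the growing arrays.

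Genes that differed from growing in the direction of arrest, beside FSD1 and SDI1, covered several functions. PYD4, named for pyrimidine breakdown, read 8.06 and 8.91 at 48 h, 5.59 and 5.02 in growing and 8.22 and 8.94 in arrested arrays. The 48 h and arrested values of this gene overlapped and both lay above growing (48 h minus growing 3.18 ± 0.35), and it was not called with the block (adjusted p = 0.0809). Rap2.6L, a transcription factor of the AP2/ERF family, stood at 9.31 and 9.78 against 6.74 and 6.21 in growing arrays and 9.02 and 10.15 in arrest (3.07 ± 0.37, block adjusted p = 0.0722). AT1G29660 (3.23 ± 0.53) was on the same side but was not called with the block (adjusted p = 0.199). SWEET11, a sucrose exporter of the phloem, read 10.27 and 10.39 at 48 h, 7.55 and 8.76 in growing and 11.06 and 12.10 in arrested arrays, so 48 h lay between the other groups without overlap (2.17 ± 0.31, limma adjusted p = 0.0299; block adjusted p = 0.0866). NIA2, a nitrate reductase chosen after its values were seen, had the same order, with 10.82 and 11.03 at 48 h, 8.16 and 9.0 in growing and 11.87 and 12.77 in arrested arrays (2.35 ± 0.28, block adjusted p = 0.0512).

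A set of genes very high in arrest had come down by 48 h but still lay above growing. AT5G39880 read 8.77 and 7.78 at 48 h, 4.71 and 6.10 in growing and 11.57 and 12.62 in arrested arrays (2.87 ± 0.42, limma adjusted p = 0.0311). AT3G01240 had 9.69 and 8.57 at 48 h, with 8.19 in the fertile and 4.45 in the sterile growing array. Its rise of 2.81 ± 0.38 was 4.68 against the sterile and 0.94 against the fertile array alone. Among genes of the same pattern chosen after their values were seen were DAF1, an F-box gene of the male germline (48 h 8.75 and 7.37, growing 4.98 and 5.64, arrested 11.85 and 12.28), and BCP1, a gene of pollen and tapetum (9.71 and 8.82, 6.86 and 7.41, 12.55 and 13.01). Neither DAF1 (2.75 ± 0.40, limma adjusted p = 0.0315) nor BCP1 (2.13 ± 0.31) overlapped between 48 h and growing arrays, and neither they nor AT5G39880 and AT3G01240 were called with the block (adjusted p between 0.139 and 0.169). Of 10 late pollen genes on a list, such as the arabinogalactan proteins AGP6 and AGP11, 0 were called in limma. An unadjusted p under 0.05 was found for 3 (17.7% of all loci), and the median difference was 0.14. AGP6 read 9.72 and 7.70 at 48 h, 8.84 in the fertile and 5.31 in the sterile growing array, and 11.99 and 12.39 in arrest.

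Among the lower loci on the side of arrest, LTI30, a dehydrin that protects cells in cold and drought, read 5.29 and 5.60 at 48 h, 6.59 and 10.52 in the sterile and fertile growing arrays and 7.39 and 7.11 in arrest. Both 48 h arrays were below the growing and arrested arrays, while the 24 h arrays read 5.32 and 5.95. The fall of 3.11 ± 0.25 (limma adjusted p = 0.00722) was 5.08 against the fertile and 1.15 against the sterile array alone. AT4G30650 (-3.09 ± 0.41), AT4G33980 (-3.00 ± 0.40) and AT1G07050 (-2.85 ± 0.30) fell relative to both growing arrays, and none of them was called with the block (adjusted p between 0.0674 and 0.116). LCR67, a plant defensin also known as PDF1.1, read 4.43 and 4.24 at 48 h, 4.62 in the sterile, 9.28 in the fertile growing array and 4.40 and 4.39 in arrest. Only the fertile array was high, and the fall was 4.95 against that array and 0.29 against the sterile one. AT1G29270 was high in the sterile array instead (9.75, against 7.16 in the fertile and 5.79 and 6.42 at 48 h), with differences of -3.65 from the sterile and -1.06 from the fertile array (block adjusted p = 0.0726).

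Values of that kind were not rare. Of 81 called genes chosen for naming, 20 moved by over 1.5 times when 1 of the growing arrays was used alone. A total of 63 of the 227 called loci differed at least 2-fold between the growing arrays. At 5 called loci the 48 h and growing arrays overlapped. They were LTP12, GPT2, HSFA2, DDB1B and CRA1, of which DDB1B and CRA1, a seed storage protein, were chosen after their values were seen, and CRA1, GPT2 and LTP12 were not called with the block (adjusted p of 0.0834, 0.152 and 0.275). HSFA2, a heat stress transcription factor, read 9.18 in the sterile array, 6.08 in the fertile array and 6.18 and 6.34 at 48 h. Its difference was -1.37 with both growing arrays and 0.18 with the fertile array alone. DDB1B, a subunit of a DNA damage binding complex, likewise read 8.74 in the sterile array and 4.85, 4.89 and 5.36 in the fertile and 48 h arrays.

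Genes that had moved past both growing arrays, away from arrest, were led by BAM5, a beta-amylase that breaks down starch. It read 11.35 and 12.04 at 48 h, 10.33 in the sterile growing array, 6.25 in the fertile one, and 4.73 and 5.32 in arrest. Both 48 h values were the highest of the 6, with a rise of 3.40 ± 0.29 (limma adjusted p = 0.00898) that was 5.44 against the fertile and 1.37 against the sterile array. JAL23, a jacalin-related lectin, had the same order (9.69 and 9.96 at 48 h, 8.54 sterile, 5.19 fertile, 4.24 and 4.47 arrested), with rises of 4.63 and 1.29 against the fertile and sterile arrays (block adjusted p = 0.110). RHM1, an enzyme that makes UDP-rhamnose for cell walls and flavonols, read 10.64 and 11.09 at 48 h against 9.35 and 9.08 in growing and 8.23 and 7.88 in arrested arrays (1.65 ± 0.23, limma adjusted p = 0.0287). All 6 arrays of RHM1 fell into 3 separate groups, and it was not called with the block (adjusted p = 0.0512).

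In the other direction, HIPP22, which encodes a protein with a heavy-metal binding domain, read 6.17 and 6.20 at 48 h, 6.62 in the sterile growing array, 8.83 in the fertile one and 11.48 and 11.87 in arrest. It had thus dropped below both growing arrays (-2.64 against the fertile and -0.44 against the sterile one). CCL (CCR-like) read 8.21 and 8.95 at 48 h, 10.80 and 11.81 in growing and 12.65 and 13.03 in arrested arrays (-2.73 ± 0.39, limma adjusted p = 0.0306). AT3G62550 had the same order, with 8.24 and 8.19 at 48 h, 10.66 and 10.81 in growing and 12.41 and 12.65 in arrest. Neither CCL nor AT3G62550 was called with the block (adjusted p of 0.0851 and 0.132).

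At called loci where arrested and growing stood close together, the 48 h arrays lay outside the range of all 4 other arrays. This held for 28 of 28 higher and 44 of 44 lower loci. The choice of these loci favours such a separation, since they were called against growing and their arrested means lay close to growing. No share over all loci is given beside it. PAP1 (MYB75), the MYB factor that switches on anthocyanin synthesis, read 8.29 and 8.90 at 48 h, 6.17 and 5.27 in growing and 7.14 and 6.26 in arrested arrays (2.88 ± 0.40, limma adjusted p = 0.0282). At 6 h PAP1 read higher still, 10.41 and 9.69. XTH7, an enzyme that remodels xyloglucan in the cell wall, read 8.65 and 9.05 against 6.77 and 5.22 in growing and 7.19 and 6.61 in arrested arrays (2.86 ± 0.26). CORI3, a gene induced by coronatine and jasmonate, was at 11.77 and 12.09 against 9.65 to 10.03 in the 4 growing and arrested arrays (2.09 ± 0.23, limma adjusted p = 0.0151). ANNAT4, an annexin, rose by 2.16 ± 0.23 (block adjusted p = 0.0589), AT4G28780 by 2.02 ± 0.21, and 4CL1, which feeds phenylpropanoid synthesis, by 1.73 ± 0.28 (block adjusted p = 0.0782).

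Lower at 48 h than in both other states were DREB2A, a transcription factor of drought and heat response (6.04 and 6.11 at 48 h, against 7.63 to 8.30 in the 4 other arrays, -1.96 ± 0.22, limma adjusted p = 0.0159), and RCI2A, a cold-inducible small membrane protein (10.57 and 10.16 against 11.34 to 12.88, -2.05 ± 0.24). The 48 h arrays were below every growing and arrested array for both genes. RbcX1, a homologue of a chaperone of Rubisco assembly, read 5.85 and 5.75 against 9.36 and 9.56 in growing and 10.78 and 9.08 in arrested arrays, but was not called with the block (-3.66 ± 0.59, block adjusted p = 0.222). Fes1B (-1.95 ± 0.25, block adjusted p = 0.0984) and the calcium-regulated kinase CIPK21 (-1.71 ± 0.30, block adjusted p = 0.0529) also fell.

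Among clock genes, called morning genes were higher and called evening genes lower than in growing inflorescences. The clock of Arabidopsis runs on morning-phased genes, among them LHY and CCA1, that repress evening-phased genes such as TOC1, which in turn repress the morning genes, so that levels depend on the hour of collection. Of 7 morning genes 3 rose, 0 fell and 4 were not called, with a median difference of 1.50 beside -0.065 over all loci. The 48 h arrays lay above both growing arrays for 5 of the 7 (15.0% of all loci) and below both for 1 (23.5% of all loci). The gene below both was PRR7, which represses CCA1 and LHY (7.36 and 8.03 against 9.01 and 9.19, not called, limma adjusted p = 0.238). LHY read 10.60 and 11.21 at 48 h, 7.33 and 6.29 in the sterile and fertile growing arrays and 9.65 and 9.0 in arrest. The 48 h arrays were the highest of the 6, and the rise was 4.10 ± 0.30 (limma adjusted p = 0.00621). CCA1 read 9.11 and 9.50 at 48 h against 5.75 and 5.93 in growing and 10.50 and 10.01 in arrest, and so was nearer to arrest (3.46 ± 0.35, limma adjusted p = 0.0142). RVE8, a related activator, rose by 1.94 ± 0.33 but was not called with the block (adjusted p = 0.168).

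Of 8 evening genes 4 fell, 0 rose and 4 were not called, with a median of -1.92, and the 48 h arrays of all 8 lay below both growing arrays, as they did for 23.5% of all loci. TOC1 read 7.35 and 7.22 at 48 h, 9.19 and 9.45 in growing and 8.71 and 7.91 in arrested arrays. The 48 h arrays of TOC1 lay below the growing and arrested arrays without overlap (-2.04 ± 0.29, limma adjusted p = 0.0299). ELF4 (-1.93 ± 0.30), ELF3 (-1.36 ± 0.24) and the RNA-binding protein GRP7 (-1.71 ± 0.26) fell too. GI, which links the clock to flowering, read 6.39 and 7.55 against 10.00 and 10.20 in growing arrays and was not called (-3.13 ± 0.78, limma adjusted p = 0.110). With the block 0 of the 8 evening genes was called in limma, and their median was -0.88. All 8 were higher in the r-coded than in the g-coded arrested array, by 0.77 at the median. The hour of collection is not given in the labels, and its part in these differences was not tested.

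**Figure D3:**
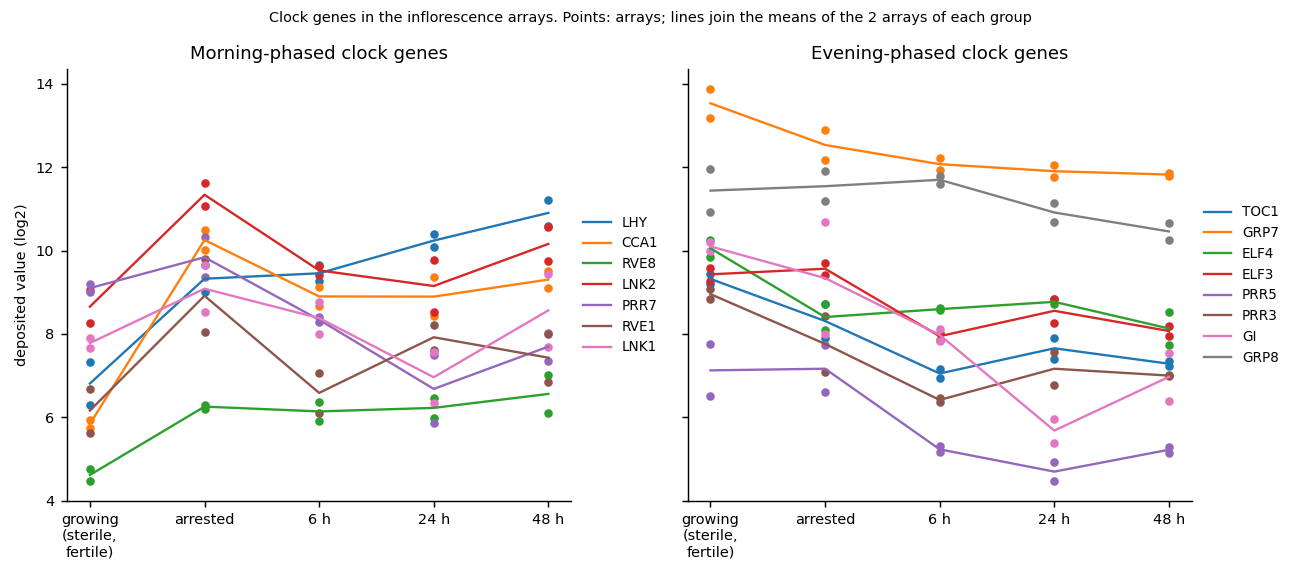
Deposited log2 value (vertical axis) of 7 morning-phased (left) and 8 evening-phased (right) clock genes in the 10 inflorescence arrays, with points for arrays and lines between the means of the 2 arrays of each group. At 48 h LHY and CCA1 lie above the growing arrays and all 8 evening genes lie below them.

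Flavonoid genes were mostly above the growing level. Flavonols and anthocyanins are made from phenylalanine through chalcone synthase (TT4), and MYB factors such as PAP1 and MYB12 switch the genes on. Of 16 genes 3 rose, 0 fell and 13 were not called, and the median difference was 1.17. The 48 h arrays lay above both growing arrays for 14 of the 16, and for 15.0% of all loci. FLS1, which makes flavonols, read 10.92 and 11.52 at 48 h, 9.38 and 9.78 in growing and 7.80 and 7.51 in arrested arrays, and so had passed the growing level (1.64 ± 0.28, limma adjusted p = 0.0484; block adjusted p = 0.104). UGT78D1, a flavonol rhamnosyltransferase, was at 9.81 and 9.69 against 8.86 and 8.32 in growing and 7.90 and 7.49 in arrested arrays (1.16 ± 0.20, limma adjusted p = 0.0479). DFR, the enzyme at the branch to anthocyanins, read 9.70 and 11.20 against 7.99 and 6.25 in growing arrays, but its 48 h arrays lay 1.5 apart and it was not called (3.33 ± 0.65, limma adjusted p = 0.0677).

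Aliphatic glucosinolate genes mostly read higher at 48 h than in growing inflorescences, but none was called. Aliphatic glucosinolates are sulfur-rich defence compounds made from methionine, and MYB28 and MYB29 control their synthesis. Of 11 genes of this pathway 0 were called in limma and 6 had an unadjusted p under 0.05 (17.7% of all loci). The median difference was 1.50, and the 48 h arrays lay above both growing arrays for 10 of the 11 (15.0% of all loci). BCAT4, the aminotransferase of the first step, read 10.02 and 9.78 at 48 h, 5.88 and 4.80 in growing and 12.49 and 9.34 in arrested arrays. Its difference of 4.56 ± 0.84 was the largest of the list (limma adjusted p = 0.0565), beside the chain-elongation enzyme MAM3 at 3.21 ± 0.74 and the regulator MYB28 at 1.38 ± 0.38. All 11 genes were higher in the r-coded than in the g-coded arrested array, by 1.98 at the median. With the code as a block, estimated from that pair, 11 of the 11 were called higher and their median was 3.82. Of 10 genes of indolic glucosinolates, made from tryptophan, 1 rose: GGP1, which removes glutamate from a glutathione conjugate, read 11.23 and 11.58 at 48 h, 9.10 and 9.27 in growing and 11.01 and 11.43 in arrested arrays (2.22 ± 0.22, limma adjusted p = 0.0135). The median of the 10 was 0.55. Their 48 h arrays lay above both growing arrays for 2 (15.0% of all loci) and overlapped with growing for 8. GTR2, a glucosinolate transporter chosen after its values were seen, read 8.16 and 8.46 against 6.50 and 6.78 in growing arrays (1.67 ± 0.25, block adjusted p = 0.144).

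Sulfate genes were examined because SDI1 was among the largest rises, so this list was chosen after its values were seen. Plants take up sulfate through SULTR transporters, activate it with ATP sulfurylase (APS) and reduce it with APS reductase (APR) and sulfite reductase (SIR). Of 26 such genes 6 rose (0.585% of all loci), 0 fell and 20 were not called, with a median of 1.06. The 48 h arrays lay above both growing arrays for 18 (15.0% of all loci). SDI1, which led to the list, is counted among the 6 and among the 18. APR3 read 8.85 and 8.70 at 48 h, 7.31 and 7.41 in growing and 9.87 and 9.78 in arrested arrays, midway between them without overlap (1.42 ± 0.16, limma adjusted p = 0.0167). LSU1, which responds to low sulfur, read 7.45 and 7.66 against 5.98 and 5.08 in growing and 7.53 and 6.83 in arrested arrays (2.03 ± 0.25). APS1 (1.18 ± 0.18), SULTR3;4 (1.61 ± 0.22) and the vacuolar exporter SULTR4;1 (1.23 ± 0.17) rose too but were not called with the block (adjusted p between 0.0634 and 0.126). APS4 lay inside the range of the growing arrays, with 7.64 and 7.54 at 48 h, 7.65 and 7.44 in growing and 10.50 and 9.76 in arrested arrays.

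**Figure D4:**
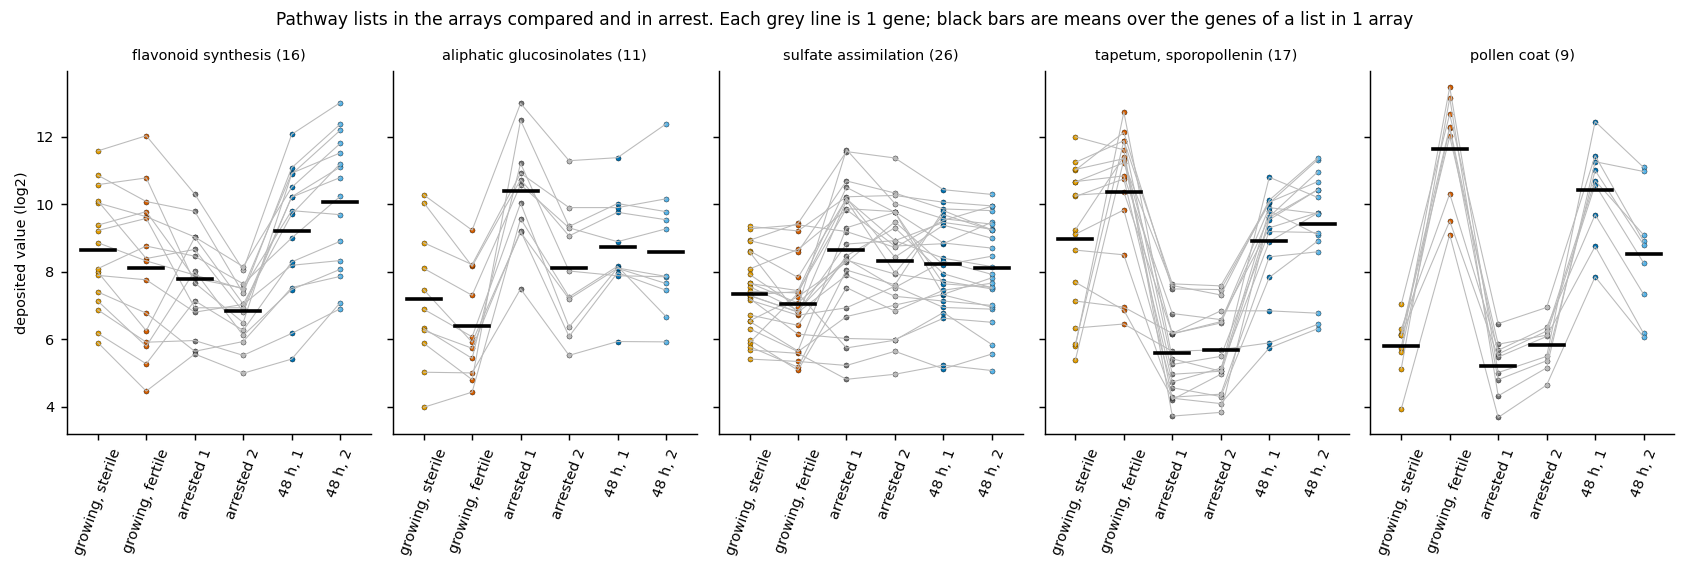
Deposited log2 values (vertical axis) of the genes of 5 lists in the growing sterile, growing fertile, arrested 1 (r code), arrested 2 (g code) and both 48 h arrays, with a grey line per gene and black bars for the mean over genes. Among the arrays shown, flavonoid means are highest at 48 h, and pollen coat genes are high in the fertile growing and the 48 h arrays alone. Aliphatic glucosinolate and sulfate means at 48 h lie above the growing arrays.

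Few genes of sugar and wall polymers were called. Of 16 starch and sugar genes 2 rose, 0 fell and 14 were not called (median 0.40). Beside BAM5, GPT2, the plastid importer of glucose 6-phosphate, rose by 2.47 ± 0.41 (limma adjusted p = 0.0454). It read 9.43 and 10.89 at 48 h, 9.45 in the sterile growing array, 5.94 in the fertile one, so that the rise was 4.22 against the fertile and 0.71 against the sterile array alone (block adjusted p = 0.152). Of 8 CSLA genes, which encode synthases of the wall polymer mannan, CSLA09 rose (8.08 and 8.66 at 48 h, 6.93 and 7.09 in growing, 7.64 and 7.74 in arrested arrays, 1.36 ± 0.24), but not with the block (adjusted p = 0.172). CSLA01 read 10.72 and 11.81 at 48 h, on either side of 10.80 in the sterile array and above 7.89 in the fertile one, and was not called (limma adjusted p = 0.0621).

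Genes of dividing cells stood above arrest, and none of those listed was called against growing. Of 16 replication, 17 mitosis and 10 core histone genes 0 were called in limma between 48 h and growing, and 1, 0 and 1 had an unadjusted p under 0.05. The median differences from growing were 0.07, -0.09 and 0.02. Against arrested inflorescences 12, 16 and 9 of them were called higher, with medians of 2.06, 2.09 and 1.89 (12.5% of all loci were called higher there). PCNA1, the sliding clamp of replication, read 9.75 and 9.66 at 48 h, 10.41 and 8.76 in the sterile and fertile growing arrays and 6.78 and 6.34 in arrest. The 48 h arrays of PCNA1 lay between the growing arrays. CYCB1;1, the cyclin of entry into mitosis, read 8.24 and 8.66, between 8.87 and 8.06 in the growing arrays. The helicase subunit MCM7, at 9.18 and 9.49 between 11.24 and 8.96, had the largest difference of the replication list (-0.77 ± 0.29). Both 48 h arrays lay above the fertile array for 15 of 16 replication, 10 of 17 mitosis and 8 of 10 histone genes, beside 42.7% of all loci. They lay below the sterile array for 15, 16 and 8 of them, beside 54.1% of all loci. Of 8 cell cycle inhibitors 0 were called in limma and 3 had an unadjusted p under 0.05 (17.7% of all loci). KRP2 was at 9.26 and 9.45 against 8.43 and 8.48 in growing arrays (0.90 ± 0.20, limma adjusted p = 0.0884). Ribosome biogenesis genes had a median of -0.03, and 0 of 10 were called in limma, also at an unadjusted p under 0.05.

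Regulators of the meristem and flower were not called against growing. Of 24 meristem and phase regulators 0 were called in limma, 2 had an unadjusted p under 0.05, and the median was -0.06. WUS, which maintains stem cells, read 6.76 and 5.94 at 48 h, 6.13 and 7.79 in growing and 4.97 and 4.03 in arrested arrays, so 48 h overlapped growing and lay above arrest. CLV2, a receptor that limits the stem cell pool, had the lowest p of the list (7.79 and 7.47 against 8.75 and 8.06, -0.78 ± 0.22, limma adjusted p = 0.135). Of 19 floral identity genes 0 were called in limma and 5 had an unadjusted p under 0.05 (17.7% of all loci). Their median was -0.34, and the 48 h arrays of 9 lay below both growing arrays (23.5% of all loci). Among them were the ovule and fruit genes SHP1 (-0.97 ± 0.30) and SHP2 (-0.57 ± 0.18), and UFO (-0.46 ± 0.17). AGL24 stood on the other side (0.66 ± 0.17, limma adjusted p = 0.117).

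**Figure D5:**
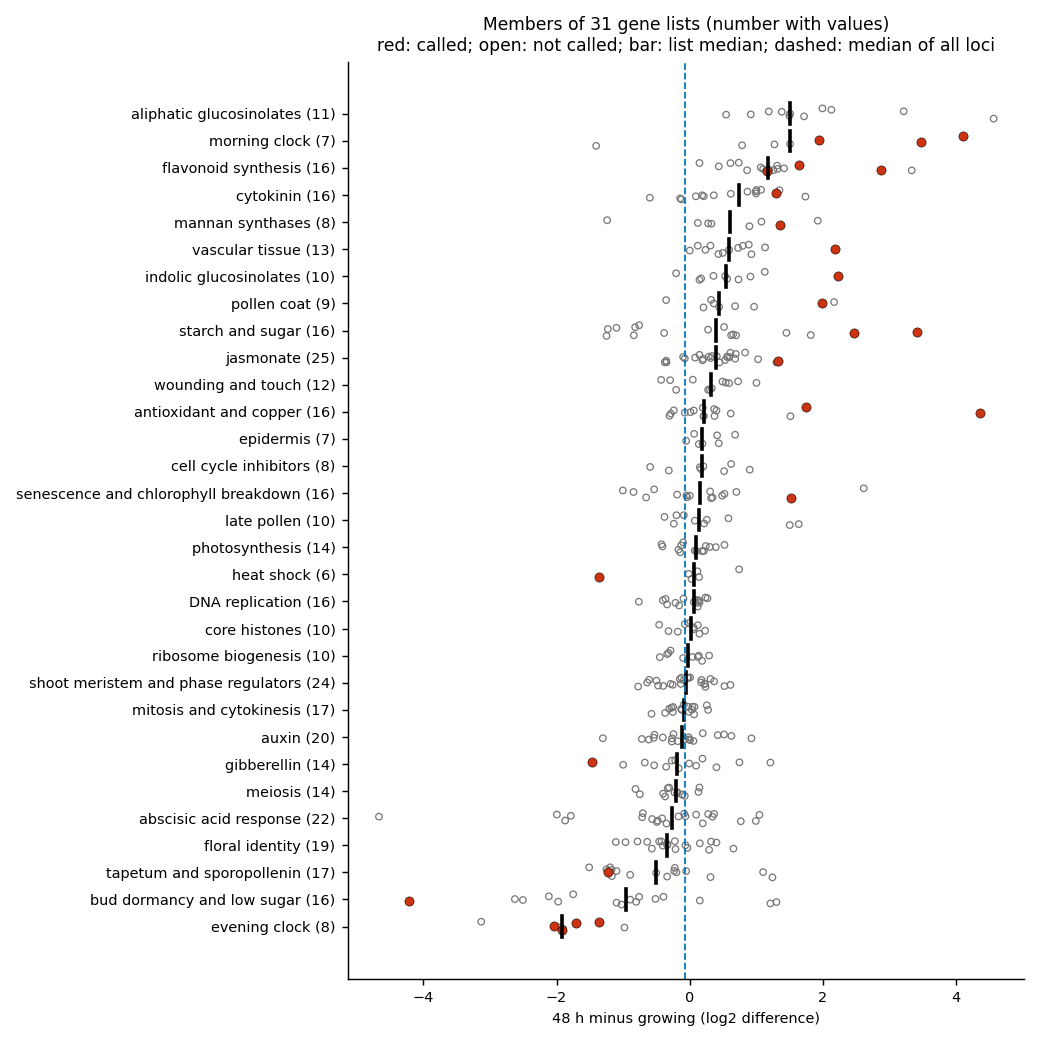
Log2 difference of 48 h minus growing (horizontal axis) for each measured member of 31 gene lists, with called members in red, other members open, a bar at the list median and a dashed line at the median of all loci, -0.065. List medians run from -1.92 for evening clock genes to 1.50 for aliphatic glucosinolates and morning clock genes, and replication, mitosis and histone members lie near 0.

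Tapetum and pollen coat genes stood above arrest, and few were called against growing. The tapetum, the inner layer of the anther, makes sporopollenin for the pollen wall and later the pollen coat. Of 17 tapetum and sporopollenin genes 1 fell and 16 were not called against growing, and 15 were called higher than in arrest. The median was -0.50 against growing and 3.70 against arrested, and the 48 h arrays of 9 lay below both growing arrays (23.5% of all loci). ACOS5, the acyl-CoA synthetase of the sporopollenin pathway, read 9.30 and 9.75 at 48 h, 10.67 and 10.84 in growing and 6.76 and 6.58 in arrested arrays. The 3 groups did not overlap, and the fall from growing was 1.23 ± 0.21 on the log2 scale (limma adjusted p = 0.0476; block adjusted p = 0.173). CYP704B1, a hydroxylase of the same pathway, was at 9.63 and 10.96 against 12.00 and 11.61 in growing and 3.72 and 3.83 in arrested arrays (-1.51 ± 0.42, limma adjusted p = 0.132). AMS, a regulator of the tapetum, overlapped with growing, at 8.44 and 8.59 against 8.64 and 8.50.

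Pollen coat genes separated the growing arrays from each other. LTP12, a lipid transfer protein, read 11.26 and 10.97 at 48 h, 13.15 in the fertile and 5.12 in the sterile growing array and 4.32 and 5.15 in arrest. Its called rise of 1.98 ± 0.35 (limma adjusted p = 0.0495) against the mean of both growing arrays was thus a difference of 6.00 from the sterile and -2.04 from the fertile array. For all 9 pollen coat genes both 48 h arrays were below the fertile array, above the sterile array and above both arrested arrays. Over all loci both 48 h arrays were below the fertile array at 33.4% and above the sterile array at 25.6%. The oleosin GRP17 read 11.44 and 8.90 at 48 h, 12.67 in the fertile and 7.03 in the sterile array, so the 48 h arrays also differed from each other. Their mean over the 9 genes was 10.41 and 8.52 at 48 h, 11.64 in the fertile, 5.79 in the sterile and 5.20 and 5.82 in the arrested arrays. Of 14 meiosis genes 0 were called in limma, 2 had an unadjusted p under 0.05 and the median was -0.21. The recombinase gene DMC1 read 8.69 and 9.03, a little below 9.07 and 9.31 in growing arrays, and 6.63 and 6.68 in arrest.

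In each hormone pathway few genes were called. Type-A response regulators (ARR) are switched on by cytokinin, the hormone of cell division, and dampen its signal. Of 16 cytokinin genes 1 rose and 15 were not called, with a median of 0.74, and the 48 h arrays of 8 lay above both growing arrays (15.0% of all loci). ARR5 read 7.41 and 7.81 at 48 h, 6.68 and 5.94 in growing and 7.34 and 7.03 in arrested arrays (1.30 ± 0.23, limma adjusted p = 0.0495; block adjusted p = 0.0856). ARR8 (6.99 and 7.27 against 5.91 and 5.66, 1.35 ± 0.28) and ARR4 (9.29 and 9.27 against 8.56 and 8.00, 1.00 ± 0.22) were not called, with limma adjusted p of 0.0797 and 0.0888.

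Of 25 jasmonate genes 1 rose and 24 were not called (median 0.40). AOS, the allene oxide synthase at the entry to jasmonate synthesis, read 8.82 and 8.61 at 48 h, 8.09 in the sterile growing array, 6.69 in the fertile one, and 7.15 and 7.16 in arrest. It had passed both growing arrays, by 2.02 the fertile and by 0.62 the sterile one (limma adjusted p = 0.0409 for both together; block adjusted p = 0.124). Of 14 gibberellin genes 1 fell and 13 were not called (median -0.19). GA2OX1, which inactivates gibberellin, read 4.97 and 5.24 at 48 h, 6.09 and 7.07 in growing and 6.93 and 6.67 in arrested arrays (-1.48 ± 0.24, limma adjusted p = 0.0417; block adjusted p = 0.171). The 48 h arrays lay below the growing and arrested arrays, as did those at 6 h (4.65 and 5.06) and 24 h (4.73 and 5.17). Of 20 auxin genes 0 were called in limma and 5 had an unadjusted p under 0.05 (17.7% of all loci), with a median of -0.12. The auxin importer LAX3 (0.93 ± 0.21) and the response gene IAA1 (-0.62 ± 0.20) had the lowest p-values.

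Of the dormancy and abscisic acid genes 1 was called. Of 16 genes of bud dormancy and low sugar 1 fell, DRM2, and 15 were not called, with a median of -0.96. That median depended on the fertile growing array: both 48 h arrays lay below it for 13 genes (33.4% of all loci) and below the sterile array for 4 (54.1% of all loci). The list means were 7.08 and 6.36 at 48 h, 6.77 in the sterile, 8.92 in the fertile growing array and 8.50 and 10.75 in the arrested arrays. HB40 and HB21, homeobox genes that act in bud dormancy, read 5.48 and 5.23, and 6.73 and 6.86, near the sterile array (5.21 and 6.57) and below the fertile one (7.55 and 8.05). NAC032 was an exception at 6.99 and 7.41 against 5.83 and 5.97 in growing arrays (1.30 ± 0.25, limma adjusted p = 0.0677). Of 22 abscisic acid response genes 0 were called in limma and 6 had an unadjusted p under 0.05 (17.7% of all loci), with a median of -0.26. Here too the growing arrays differed: both 48 h arrays lay below the fertile array for 14 genes (33.4% of all loci). They lay below the sterile array for 9 (54.1% of all loci) and above it for 10 (25.6% of all loci). RD29A, a drought and cold marker, read 5.80 and 5.93 at 48 h, 9.77 and 11.29 in growing and 9.94 and 6.38 in arrested arrays. It was lower at 48 h than in every growing and arrested array, and lower still at 24 h (5.44 and 5.63). The arrested arrays differed widely, and RD29A was not called (-4.67 ± 1.00, limma adjusted p = 0.0831).

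Of 16 senescence genes 1 rose and 15 were not called (median 0.15, against -1.56 for 48 h minus arrested). SAG21, a late embryogenesis abundant-like protein induced in senescence, read 9.46 and 9.08 at 48 h, 7.24 and 8.25 in growing and 12.21 and 12.78 in arrested arrays. It had come down most of the way from arrest and still lay above growing (1.53 ± 0.24, limma adjusted p = 0.0393; block adjusted p = 0.178). SAG13 was at 7.91 and 8.73 against 5.85 and 5.57 in growing arrays and was not called (2.61 ± 0.54, limma adjusted p = 0.0769). SAG12, the protease used as a marker of senescence, read 4.75 and 5.42 at 48 h, 5.75 and 5.49 in growing and 8.87 and 9.40 in arrested arrays. NYC1, a chlorophyll b reductase, was below both growing arrays (9.19 and 9.29 against 10.14 and 10.35, -1.01 ± 0.23, limma adjusted p = 0.0892).

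Of 13 vascular genes 1 rose, SWEET11, with a median of 0.59. The xylem protease XCP2 read 8.78 and 9.14 against 7.44 and 8.22 in growing arrays (1.13 ± 0.38, limma adjusted p = 0.198), and the phloem loading gene SUC2 did not differ on average (0.00 ± 0.40). The part of the vascular markers in the rise of SWEET11 was not tested. Of 14 photosynthesis, 7 epidermis and 12 wounding and touch genes 0 were called in limma. At an unadjusted p under 0.05 there were 0, 2 and 2, and the medians were 0.09, 0.19 and 0.32. Of 6 heat shock genes HSFA2 alone was called, and HSP70 read 7.85 and 7.96 against 7.62 and 6.71 (0.74 ± 0.22, limma adjusted p = 0.149). Of 16 antioxidant and copper genes 2 rose and 14 were not called (median 0.21). Beside FSD1 this was COPT2, a copper importer, at 7.50 and 7.95 against 6.15 and 5.82 in growing and 9.50 and 8.72 in arrested arrays (1.74 ± 0.30, limma adjusted p = 0.0476). The copper-zinc superoxide dismutases CSD1 and CSD2 overlapped between 48 h and growing (0.37 ± 0.43 and -0.29 ± 0.46).

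Laser-dissected meristems give values from arrays that the comparison did not use: 1 taken 48 h after fruit removal, and 1 each from fertile and sterile growing plants, all from at least 20 plants. With 1 array against 2 there is no test. Of the 124 loci higher in whole inflorescences, 82 were above the growing mean in meristems (50.0% of all loci were), with a median of 0.15 against 0.00 for all loci, and 3 were at least 2-fold higher (0.769% of all loci) and 1 at least 2-fold lower. Of the 103 lower loci, 70 were below (49.0% of all loci), with a median of -0.18, and 3 were at least 2-fold lower (0.519% of all loci) and 1 at least 2-fold higher. FSD1 read 7.42 in meristems after fruit removal, 5.96 and 5.57 in fertile and sterile growing meristems and 9.19 in arrested ones, the same order as in inflorescences. PYD4 (6.17 against 5.40 and 4.85) and SULTR3;4 (7.73 against 6.46 and 6.86) were the other higher loci past 2-fold. DRM2 read 6.11 against 9.59 and 8.04. CYP82C2 (3.12 against 4.29 and 4.04) and DDB1B (5.52 against 5.21 and 8.34), both chosen after their values were seen, were the other lower ones, and DDB1B was low only against the sterile meristems. LHY and CCA1 stood 0.52 and 0.83 above the growing mean in meristems, and SDI1 stood at 0.00.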

How the data were processed

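RNA of 10 whole-inflorescence pools and 4 laser-dissected meristem pools was measured on Affymetrix arrays, 1 sample per array. The deposited table holds 21253 value rows of the authors, of which 58 are control probes and were left out. The sources used here do not give the scale. The deposited values run from 0 to 14.13 and were read as log2. How the authors corrected and normalized the intensities is not stated in them. Symbols came from a RefSeq gene table, which holds 21097 of the 21195 loci, and MS1 has 0 value rows.

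Values were used as deposited. In limma 3.58.1 (R 4.3.3) the 10 inflorescence arrays were fitted with 6 group means, and the mean of the 48 h arrays was compared with the mean of the fertile and sterile growing arrays. Each growing group has 1 array, which is assumed to vary like the other groups (4 residual and 3.7 prior degrees of freedom). P-values were adjusted by Benjamini-Hochberg over 21195 loci, and loci were called under 0.05. An error after ± is the standard error of the fit. Since the labels do not call the arrays separate cultures or plants, p-values measure spread between pools. That spread came from the arrested, 6 h, 24 h and 48 h pairs alone, so no error or p-value holds the spread among growing pools. The growing arrays, if taken as a pair, had a standard deviation of 0.29. It was 0.24 for the arrested pair, 0.085 at 6 h, 0.163 at 24 h and 0.163 at 48 h. With the growing arrays fitted as 1 group, 83 loci were called. In simulated data with 50 changed genes of each size at 21195 loci, the fit recovered 18 of those changed by a log2 of 1, 49 at 2, 47 at 3 and 50 at 4, with 8 false calls. All 10 simulated arrays shared 1 mean per gene apart from the changes at 48 h. The simulation thus held no difference between the fertile and sterile growing arrays, and its counts do not cover one.

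The comparison and the lists (31, with 427 measured entries of 471 written) were chosen with earlier results of these data known. Of the written entries 35 have no value and 9 carry another name in the gene table. Named genes are the 15 largest called rises and falls that do not overlap, up to 8 per position class and direction, and up to 4 per list with the lowest p. Chosen after their values were seen were the sulfate list of 26 genes, 15 further called genes, and PCNA1, CYCB1;1, HB21, SAG12, CYP704B1, AMS, GRP17, DMC1, SUC2, CSD1, CSD2, GI, PRR7, MYB28 and APS4. Alternatives were quantile normalization, median centring, a filter on low values, the growing arrays as 1 group, fewer arrays, trended robust moderation, the title code (r or g) as a block, and leaving out each array.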

Additional observations from a re-analysis of the deposited data

Results flagged for a closer look

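At 15 called genes the meristem array after fruit removal stood on 1 side of both growing meristem arrays while both 48 h inflorescence arrays stood on the other side of both growing inflorescence arrays. These differences between whole inflorescences and meristems were not tested, since the meristems have 1 array against 2. With the title code as a block, HIPP22 and CORI3 were called in the inflorescence comparison, and the others were not (limma adjusted p between 0.0512 and 0.222).

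HIPP22 was lower at 48 h in inflorescences (-1.54) and higher after fruit removal in meristems, by 1.53. The transcripts AT4G30650 (0.69), AT4G33980 (0.71), AT1G07050 (0.14), AT2G39920 (0.98), AT5G62360 (0.23) and AT5G22270 (0.78) likewise fell in inflorescences and had these positive differences in meristems, as did RbcX1 (0.26). In the other direction NIA2, which rose by 2.35 in inflorescences, had a meristem difference of -1.04. Negative meristem differences were also found for risen AT4G17470 (-0.13), AT5G12110 (-0.32), AT3G10080 (-0.95), CORI3 (-0.54), AOS (-0.40) and AT1G54070 (-0.17).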

How the results depend on the processing

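Against 227 called loci and 25 called list members, quantile normalization gave 356 and 34, median centring 231 and 26, leaving out loci of low mean 248 and 25, and trended robust moderation 287 and 29. The growing arrays as 1 group gave 83 and 6, leaving out the 6 h arrays 47 and 6, and the 4 compared arrays alone 0 and 0 (3438 loci at an unadjusted p under 0.05 in limma). Leaving out the arrested arrays, an alternative chosen after seeing the data, gave 1237 and 73, and the title code as a block 382 and 40. The share of called loci that were higher was 54.6% as reported, 59.3% after quantile normalization, 61.5% after centring, 66.3% with 1 growing group, 72.3% without the 6 h arrays, 40.9% without the arrested arrays and 35.3% with the block. Leaving out 1 array gave 23 to 1237 loci and 4 to 73 list members. The count was 1237 without either arrested array, 156 without the sterile and 168 without the fertile growing array, 47 without either 6 h array, 48 without either 24 h array, and 24 or 23 without a 48 h array. With 1 array of the arrested, 6 h or 24 h pair left out, that pair gives no spread, so either member gave the same count. The cause of the other shifts was not tested.

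Of 81 called genes chosen for naming, 78 kept their direction: 73 in all 19 alternative settings, and 5 in the 18 that remained once the filter on low means had left them out. In at least 14 settings 20 were called. LTP12 (-2.04), HSFA2 (0.18) and DDB1B (0.27) changed sign without the sterile growing array, and without the fertile one they stood at 6.00, -2.92 and -3.62. No paired analysis was possible because the labels give no replicate numbers. The depth of an array is not defined, and the number of arrays, with 1 per growing group, limits what could be called. Of simulated log2 changes of 1, 18 of 50 were recovered, without a simulated difference between the growing arrays.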
